A study of Mus musculus with 12 samples.

Results

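Peaks of Rpb2 that lay just downstream of promoters, in the early body of protein-coding genes, were examined in microglia of WT and *Cx3cr1*-KO mice. A peak was taken when its centre was more than 200 and at most 2000 bp downstream of the nearest annotated transcription start site (TSS) and its gene was protein-coding. This held for 2326 of the 26706 peaks of the Rpb2 table, in 1963 genes. Of these genes, 1650 had 1 such peak, 269 had 2, 38 had 3 and 6 (*Arhgap45*, *Ikzf1*, *Mxi1*, *Rasgrp3*, *Rnase4* and *Zeb2*) had 4. For 1097 peaks of 929 genes, a second Rpb2 peak of the same gene had its centre between -100 and 200 bp of a TSS. These pairs allowed the early gene body to be read against the promoter. There were 5955 such promoter peaks in all.

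Rpb2 is a core subunit of RNA polymerase II (Pol II), written Rbp2 in the text of the study. The study profiled Pol II binding to ask whether it explains the expression differences between WT and KO microglia, the resident macrophages of the brain. Microglia were sorted as CD11b+CD45lo cells and fixed, from 2-mo-old littermates on the C57BL/6J background. WT mice carried 2 intact copies of *Cx3cr1*, and in KO mice *eGFP* disrupted both copies in the germline, so the loss was not limited to microglia. Each of the 4 Rpb2 libraries was a pool of 3 mice, 1 pool labelled female and 1 labelled male in each genotype, which makes n = 2 pools per genotype.

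At most active genes Pol II initiates at the TSS and pauses shortly downstream, held by the factors DSIF and NELF. The kinase P-TEFb then releases it into productive elongation, so that a ChIP signal in the early gene body can come from polymerases leaving the pause, from polymerases slowing at the first exon-intron border or first nucleosomes, or from initiation at another start of the same gene. Acetylation of lysine 27 of histone H3 (H3K27ac) marks the nucleosomes that flank active starts. In sorted pools, fewer cells with Pol II at a peak and less Pol II per cell cannot be told apart.

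The library labelled WT female had 136 reads in the 3 peaks on the Y chromosome, whereas the library labelled KO female had 0 and the libraries labelled WT male and KO male had 214 and 266. The labels were kept as given. Total reads per library were 11662185, 13653287, 44332626 and 16528108 for the libraries labelled WT female, WT male, KO female and KO male. This order holds for all lists of 4 values below. Between 9.23% and 9.53% of the reads in peaks fell in the early gene body peaks, against 35% to 38.3% in promoter peaks. Of 36 gene symbols listed for homeostatic microglia, 35 had an Rpb2 peak, against 0 of 12 neuron markers, 1 of 10 astrocyte markers, 4 of 11 oligodendrocyte markers, 3 of 10 endothelial markers, 1 of 16 markers of monocytes, neutrophils and lymphocytes and 1 of 10 border macrophage markers. The microglia list counts *Gpr56* and *Adgrg1*, which name the same gene, separately.

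The central 200 bases of 6 peaks are shown because they carry the contrasts described below. The *Cx3cr1* peak lies in the targeted gene, *Srgn* had the lowest p among peaks higher in KO, *Dip2b* and *Plek* stand at the upper and lower end of the downstream-to-promoter ratio, and *Ifngr2* and *Arhgap25* had a ratio that was higher or lower in KO. All 6 windows are in introns, outside UTRs and coding exons, and are written from 5′ to 3′ on the strand of the gene in GRCm38, with the distance to the TSS after the plus sign. Capitals mark matches to 7 short motifs, on both strands: the PU.1 core GGAAGT, AP-1 TGANTCA, the GC box GGGCGG, the CCAAT box, the TATA box TATAAA, the cyclic AMP response element TGACGTCA and the ETS promoter core CCGGAAG, which can overlap the PU.1 core.
Cx3cr1 +970, chr9:120067226-120067425, minus strand: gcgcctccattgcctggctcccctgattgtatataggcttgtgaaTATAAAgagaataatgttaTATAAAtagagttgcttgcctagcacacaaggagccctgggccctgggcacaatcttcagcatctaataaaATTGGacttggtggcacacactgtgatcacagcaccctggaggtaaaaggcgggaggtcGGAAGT
Srgn +1260, chr10:62506397-62506596, minus strand: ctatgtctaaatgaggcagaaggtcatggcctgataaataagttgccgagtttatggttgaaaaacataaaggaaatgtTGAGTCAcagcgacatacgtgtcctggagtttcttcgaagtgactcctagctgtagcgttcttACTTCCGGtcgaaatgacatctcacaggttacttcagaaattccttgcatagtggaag
Dip2b +917, chr15:100039481-100039680, plus strand: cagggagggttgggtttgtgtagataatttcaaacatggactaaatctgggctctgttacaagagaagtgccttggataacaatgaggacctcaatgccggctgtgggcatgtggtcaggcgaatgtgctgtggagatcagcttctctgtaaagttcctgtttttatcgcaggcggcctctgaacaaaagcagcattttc
Plek +1819, chr11:17006799-17006998, minus strand: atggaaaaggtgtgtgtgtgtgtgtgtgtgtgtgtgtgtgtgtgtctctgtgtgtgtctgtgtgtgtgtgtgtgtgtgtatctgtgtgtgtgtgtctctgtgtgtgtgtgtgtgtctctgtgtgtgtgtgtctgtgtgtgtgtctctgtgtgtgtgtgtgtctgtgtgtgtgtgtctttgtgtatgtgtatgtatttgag
Ifngr2 +518, chr16:91547512-91547711, plus strand: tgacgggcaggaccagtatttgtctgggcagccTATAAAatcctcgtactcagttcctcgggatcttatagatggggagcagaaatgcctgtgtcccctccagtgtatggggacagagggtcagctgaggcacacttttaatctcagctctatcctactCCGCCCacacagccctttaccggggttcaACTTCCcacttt
Arhgap25 +1677, chr6:87494550-87494749, minus strand: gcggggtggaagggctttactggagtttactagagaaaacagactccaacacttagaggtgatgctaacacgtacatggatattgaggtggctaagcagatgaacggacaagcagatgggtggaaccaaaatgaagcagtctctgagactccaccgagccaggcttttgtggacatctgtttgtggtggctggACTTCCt

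The PU.1 core, bound by the factor that defines macrophage lineages, was matched in 4 of the 6 windows. It was found in 23.5% of the early gene body peaks (547 of 2324 with a full window), 25% of promoter peaks and 22.5% of all Rpb2 peaks. The AP-1 motif was matched only in the *Srgn* window of the 6, and in 3.96% of early gene body, 1.98% of promoter and 4.62% of all peaks. The window of *Plek* consists mostly of a repeat of the bases TG, with 0 CpG sites.

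The label of these peaks was checked against a second annotation. Of 2321 peaks with a GENCODE gene, 544 (23.4%) had a GENCODE start of their own gene within -100 to 200 bp of the peak centre, although the deposited distance put them further downstream. The share was 10.1% for peaks with a promoter peak of the same gene and 35.4% for peaks without one. The peaks near a GENCODE start had the base composition of promoters, with a median GC content of 65% against 56.5% for the 1777 peaks away from a start and 66.5% for promoter peaks. The GC box was matched in 48.5% of the former, 23.1% of the latter and 53.7% of promoter peaks. Part of the peaks thus lay at a start of their gene in another annotation.

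The peaks were most often intronic. The deposited annotation put 1499 of 2326 (64.4%) in introns, 1269 of them in intron 1, and 280 in exons, 249 in 5′ UTRs, 155 at a promoter, 91 near a transcription end, 31 in non-coding transcripts, 20 in 3′ UTRs and 1 outside genes. By the span of the GENCODE gene, 215 of 2321 peaks (9.26%) lay past its middle and 17 of these past its end. The median distance was 758 bp, and 532 peaks lay in the first 200 bp of the window against 107 in the last. The end of the first exon, where the first splice donor lies, was inside 18.1% of the peaks and inside 50.4% of promoter peaks. An H3K27ac peak overlapped 95.4% of the early gene body peaks, 99.4% of promoter peaks and 59.1% of the 9136 peaks of protein-coding genes further downstream. At the limits of the rule, the 40 peaks in the first 10 bp inside the lower limit had median counts of 6.09, 5.53, 5.7 and 7.56 CPM of total reads, and the 62 peaks in the last 10 bp outside it 4.89, 5.42, 4.23 and 5.57. The 29 peaks in the last 50 bp inside the upper limit had 2.4, 1.98, 2.01 and 3.39, and the 29 in the next 50 bp beyond it 2.32, 2.71, 2.98 and 4.72.

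Read density is given as CPM per kb of peak, where CPM is the count scaled to the library's reads in peaks after TMM normalization, which aligns libraries on the bulk of their peaks. The median over the early gene body peaks was 106, 106, 99 and 102 in the 4 libraries, between that of promoter peaks (183, 190, 165 and 160) and that of peaks further downstream (54.2, 53.2, 58.4 and 59.6). The peaks near a GENCODE start had a median of 152 over the mean of the libraries, and those away from one 94.2. The 1229 peaks of genes without a promoter peak were denser than the 1097 with one, with medians of 117 and 91.6, and lay nearer to the TSS (median 509 against 926 bp). Of the genes with a promoter peak, 15.9% also had an early gene body peak. The promoter peaks of those genes, 1 a gene and that with the most reads, had a median density of 299. All 4983 promoter peaks of genes without an early gene body peak had 162, so the first set was picked for high counts and the second was not. The median density was 151 at 201 to 400 bp, between 89.8 and 103 in the bins from 401 to 1600 bp, 80 at 1601 to 1800 bp and 71.1 at 1801 to 2000 bp.

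Of the densest peaks, that of *Brd2*, a reader of acetylated histones, had 1931, 1834, 1823 and 2123. *Atf4*, a transcription factor of the integrated stress response, had 1865, 1657, 1367 and 1534. For *Atf4* both KO pools were below both WT pools, and for *Brd2* the pools overlapped. *Gapdh*, a glycolytic enzyme, had 1614, 1227, 1578 and 1910, and *Eif4a2*, an RNA helicase of translation initiation, had 1541, 1727, 1349 and 1210. *Gpx1*, a peroxidase that removes hydrogen peroxide, had 1301, 1248, 1372 and 1411. The pools of *Gapdh* overlapped, those of *Eif4a2* were lower in KO, and those of *Gpx1* were higher in KO. *Tnrc6c*, a partner of Argonaute in miRNA silencing, had 1288, 1246, 1243 and 912, and *Fam53c* had 1043, 1233, 1284 and 1113. None of these 7 passed the threshold between genotypes in the test over all peaks, with log2 fold changes between -0.35 and 0.30 and adjusted p between 0.462 and 0.909 (edgeR quasi-likelihood). The peak centres of *Atf4*, *Eif4a2*, *Gapdh*, *Gpx1*, *Tnrc6c* and *Fam53c* lay 5, 5, 6, 38, -60 and 21 bp from a GENCODE start of the gene, so the deposited distances of 344, 329, 203, 234, 224 and 267 bp do not place them in the gene body in both annotations.

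**Figure D1:**
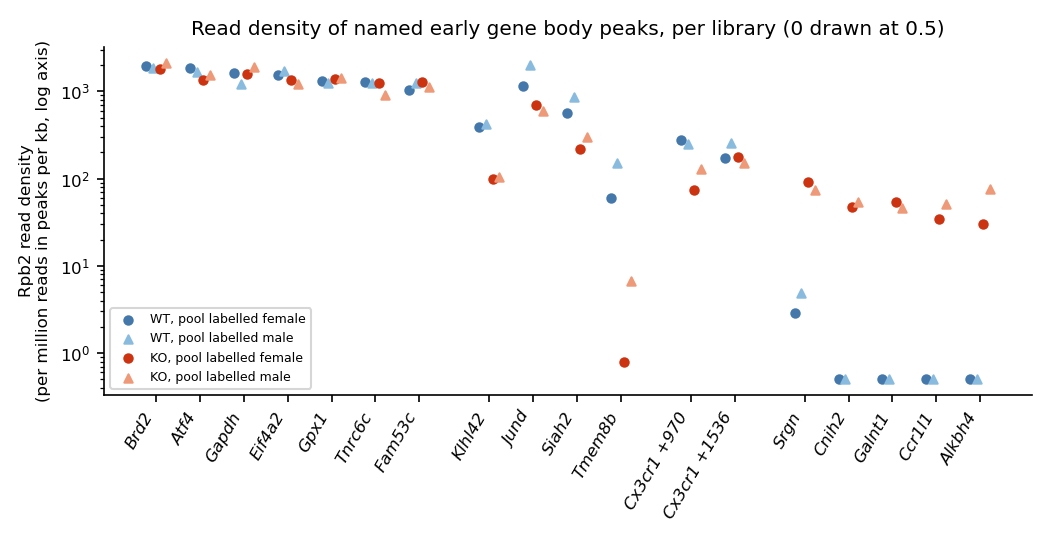
Rpb2 read density (CPM per kb, log axis, 0 drawn at 0.5) of 18 named peaks, with 1 point for each of the 4 libraries (circles, pools labelled female; triangles, pools labelled male). The 7 dense peaks sit close together in the 4 libraries, whereas the 4 peaks named as lower in KO and the 5 named as higher were picked for pools that do not overlap.

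Pol II was usually sparser downstream than at the promoter of the same gene. In 762 of 1097 pairs (69.5%) the downstream peak was less dense than its promoter peak, in 57 (5.2%) it was denser, and in 278 the difference did not pass an adjusted p of 0.05 (edgeR quasi-likelihood over both peaks of a pair in the 4 libraries, with peak width as an offset). The 2 percentages are those of all pairs tested, so here the pairs are their own background. Over the pairs, the median log2 ratio of downstream to promoter density was -1.60, -1.84, -1.48 and -1.42, and the median of the means was -1.68, a ratio of 0.313. The quartiles over pairs were -2.71 and -0.61. The promoter peak with the most reads stood for a gene that had several, which lowers the ratio. With the promoter peak nearest to the TSS, 816 pairs passed, 62 of them denser downstream.

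**Figure D2:**
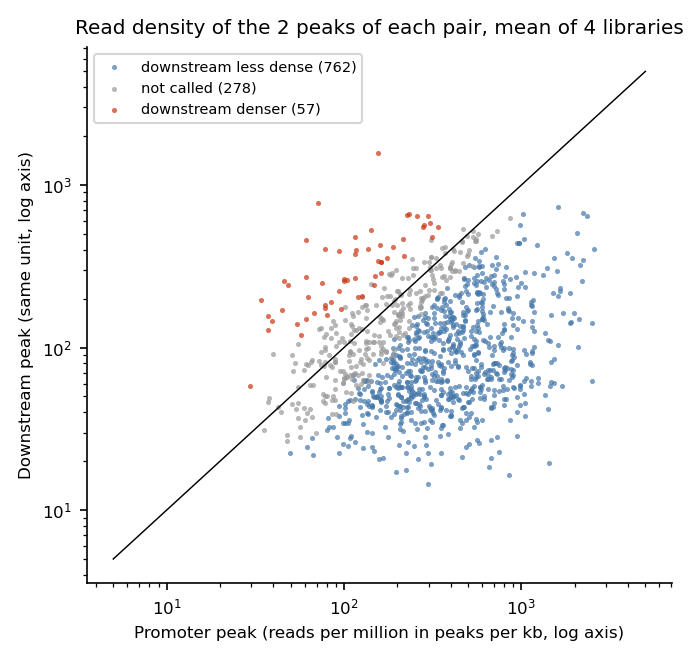
Read density of the promoter peak (x axis) and the downstream peak (y axis) of 1097 pairs, both in CPM per kb on log axes and averaged over 4 libraries. Most points lie under the line of equal density. Of the pairs, 762 were called less dense downstream, 57 denser and 278 neither.

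The ratio fell over the first part of the window and then changed little until its end. Its median was -0.16 for the 52 pairs with a downstream peak at 201 to 400 bp, -0.83 for 116 pairs at 401 to 600 bp, -1.68 for 268 pairs at 601 to 800 bp and -1.90 for 175 pairs at 801 to 1000 bp. From 1001 to 1800 bp the medians of the 200-bp bins lay between -1.78 and -1.89, and the 66 pairs at 1801 to 2000 bp had -2.49. Peaks of 40 pairs were under 200 bp apart and may share fragments. Their median was -0.37, and that of the 713 pairs at least 500 bp apart was -1.83. For pairs whose downstream peak was near a GENCODE start the median was -1.13, and for the others -1.73. These medians are descriptions over pairs that share libraries and were not tested against each other.

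**Figure D3:**
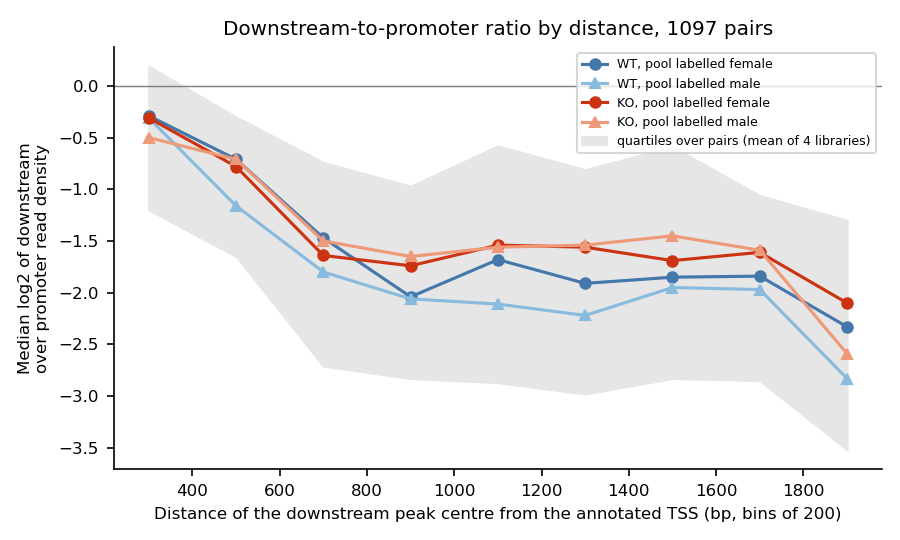
Median log2 ratio of downstream to promoter read density (y axis) against the distance of the downstream peak from the TSS in 200-bp bins (x axis), 1 line per library, with the quartiles over pairs shaded. In each library the ratio is nearest to 0 in the first bin (-0.29, -0.31, -0.31 and -0.50) and lowest in the last (-2.33, -2.83, -2.10 and -2.59).

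Among pairs with at least 20 reads in both peaks in every library, *Ppp1r3b*, a subunit that targets protein phosphatase 1 to glycogen, had the highest ratio. Its peak at 954 bp had 225, 353, 930 and 374 reads and its promoter peak 30, 47, 73 and 62, for log2 ratios of 3.34, 3.35, 4.12 and 3.04. This peak lay 35 bp from a GENCODE start. *Dip2b* followed at 917 bp, with 151, 203, 660 and 303 reads against 39, 55, 102 and 33 at the promoter. Its log2 ratios of 1.69, 1.62, 2.44 and 2.93 were above 0 in every library (fitted 2.17, SE 0.30, adjusted p = 1.02e-05, edgeR), and no GENCODE start of the gene lay within 200 bp of it. *Mr1*, an antigen-presenting molecule that shows vitamin B metabolites to T cells, had log2 ratios of 1.58, 2.70, 2.47 and 1.64 at 924 bp. *Sin3a*, the scaffold of a histone deacetylase complex, had 2.02, 1.58, 2.24 and 1.83 at 1791 bp, and *Apba1*, an adaptor that binds the amyloid precursor protein, had 1.35, 1.01, 3.30 and 1.66 at 776 bp. All 3 were above 0 in every library, with adjusted p of 2.33e-05, 1.57e-05 and 0.00122 (edgeR). But the promoter peak of *Sin3a* belonged to another start, with 2314 bp between the 2 peaks. Its ratio thus does not set the early gene body against the start that the distance of 1791 bp refers to.

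The 57 pairs with a denser downstream peak, in 53 genes, had a GENCODE start at the downstream peak in 19.3% of cases, against 8.4% of the 762 pairs that were less dense downstream. Another nearest promoter was given for the downstream and the promoter peak in 26.3% and 15.5%. Their downstream peaks had been found in both genotypes in 80.7% and 28%, and their median promoter densities were 115 and 401. The low promoter density enters the ratio itself.

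At the lower end, *Plek*, the gene of the phagocyte protein pleckstrin, had 34, 28, 30 and 104 reads at 1819 bp against 411, 546, 2024 and 820 at the promoter. Its log2 ratios were -4.55, -5.23, -7.02 and -3.94, a wide spread in KO, and its peak is the TG repeat printed above. *Rps9*, of the small ribosomal subunit, had -4.76, -5.00, -4.14 and -4.61 at 1491 bp, where a GENCODE start of the gene lay 84 bp further on (-84). *Nfkbia*, the inhibitor of NF-kB, had -3.94, -4.55, -4.86 and -4.26 at 1919 bp. *Ucp2*, a mitochondrial carrier, had -3.77, -4.63, -5.28 and -3.50 at 1435 bp. All 4 promoter peaks were denser in every library.

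In the comparison of genotypes, none of the 2326 peaks passed an adjusted p of 0.05 (edgeR quasi-likelihood over all 26706 peaks, genotype alone). Over all peaks 2 passed (0.00749%). In simulated counts this fit recovered 14 of 200 peaks changed 4-fold (7%), so a change of that size could be missed. At an unadjusted p under 0.05 there were 105 peaks higher in KO (4.51%, against 6.12% of all peaks) and 140 lower (6.02%, against 6.06%). Both KO pools lay above both WT pools at 497 peaks (21.4%, against 25.7% of all peaks) and below them at 508 (21.8%, against 21.7%). The shares at the early gene body were thus near or under those of the whole table. By annotation, 3.12% of the peaks near a GENCODE start were higher and 9.01% lower at an unadjusted p under 0.05, and 4.95% and 5.12% of those away from one. The median of the log2 fold changes (KO over WT) was -0.00 at these peaks and 0.04 over all peaks. Other tools called some of them. DESeq2 called 78 (30 higher, 48 lower), which is 3.35% against 3.83% of all peaks. The likelihood ratio test of edgeR called 57 (34 higher, 23 lower), 2.45% against 3.46%. The newer quasi-likelihood method of edgeR, added after the data were seen, called 20 (3 higher, 17 lower), 0.86% against 1.02%.

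The direction depended on the scaling. Per total reads in place of TMM, 221 of the 261 peaks at an unadjusted p under 0.05 were higher in KO (84.7%), against 42.9% after TMM. The whole table moved likewise. With total reads 9.5% of the early gene body peaks were higher and 1.72% lower, against 11.1% and 2.05% of all peaks. The median of all peaks moved from 0.04 to 0.37. A larger share of reads fell in peaks in the library labelled KO male (15.1%) than in the others (11.2% to 12.2%). Without the library labelled WT female, whose Y-linked reads go against its label, 145 peaks were called (92 higher, 53 lower), which is 6.23% against 8.28% of all peaks. Without the library labelled WT male 109 were called, 4.69% against 7.35%. Without either KO library 0 were called.

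Which genotype a peak had been found in went with its fold change. The table joins a list of peaks reproducible in WT and one reproducible in KO. Of the early gene body peaks 922 were in both lists, 1118 in the KO list alone and 286 in the WT list alone. The median log2 fold change was -0.16 in the first group, 0.39 in the second and -0.74 in the third, and over all peaks of the same kinds -0.17, 0.51 and -0.89. Since calling a peak in 1 genotype uses the same reads, the last 2 values in each set are no test of a difference. In the peaks of both lists, 7 were higher and 68 lower in KO at an unadjusted p under 0.05 (0.759% and 7.38%, against 0.742% and 7.71% of all peaks of both lists). This split rests on the scaling over the whole table: when the peaks of both lists were scaled and fitted alone, 33 were higher and 46 lower (3.58% and 4.99%, against 3.56% and 5.43% of all such peaks) and their median was 0.00.

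**Figure D4:**
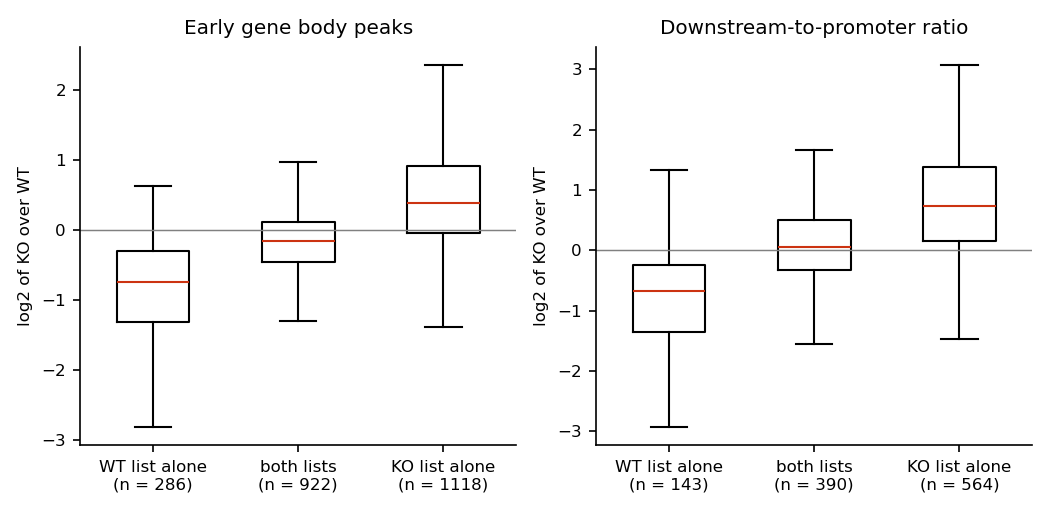
Fitted log2 fold change of KO over WT (y axis) of the early gene body peaks (left) and of the downstream-to-promoter ratio of pairs (right), by the genotype list that held the downstream peak. Boxes show the quartiles and median, and whiskers reach up to 1.5 times the box height. The medians are -0.74, -0.16 and 0.39 on the left and -0.67, 0.05 and 0.74 on the right.

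Along the window, the median log2 fold change was -0.14 at 201 to 400 bp, as over the promoter peaks (-0.14), and 0.20 at 1201 to 1400 bp, the highest of the 200-bp bins. The 3 bins beyond it had 0.14, 0.07 and 0.13, and peaks further downstream 0.24. In peaks of both lists it was -0.19 up to 800 bp and -0.10 beyond, and in peaks of the KO list alone 0.21 and 0.57. The library labelled KO female held the most reads by far, and its part in the length of the KO list was not tested.

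*Cx3cr1*, the fractalkine receptor that was deleted, had 2 early gene body peaks, both in its intron 1 and so outside the coding exon. They do not check the deletion. The peak at 970 bp, shown above, had 127, 134, 143 and 117 reads, for densities of 279, 249, 73.5 and 129. Both KO pools were below both WT pools. But this peak came from the WT list alone, whose calling had used the same reads, so its separation is no independent test. The fitted log2 fold change was -1.40 (SE 0.37) with an adjusted p of 0.198 (edgeR). Over 13 alternatives it lay between -1.84 and -1.03, and it passed the threshold in 4, which were DESeq2, the likelihood ratio test, the newer quasi-likelihood method and the fit without the library labelled WT male. The peak at 1536 bp had 172, 258, 178 and 151, with pools that overlapped (-0.38, SE 0.35, adjusted p = 0.686, edgeR). Both were less dense than the promoter peak of the gene, with fitted log2 ratios of -2.82 and -2.60 (adjusted p = 2.05e-07 and 2.46e-07, edgeR). The log2 ratio of the first was -2.09, -2.34, -3.88 and -2.96, and that of the second -2.79, -2.29, -2.61 and -2.73. A single broad H3K27ac peak spanned both, with 23.6, 34.9, 20.7 and 21.6 CPM per kb, lower in both KO pools.

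By the rule for named genes, the peaks lower in KO with the lowest p included those of *Klhl42*, *Jund*, *Siah2* and *Tmem8b*. *Klhl42*, a substrate adaptor of a cullin ubiquitin ligase, had 113, 146, 123 and 60 reads and densities of 387, 423, 98.5 and 103. Both KO pools were below both WT pools, with a log2 fold change of -2.01 (SE 0.35), and the peak centre lay 32 bp before a GENCODE start (-32). *Jund*, a subunit of AP-1, had densities of 1139, 1997, 691 and 589 at 1223 bp (-1.29, SE 0.25) and lay 13 bp from a GENCODE start. *Siah2*, a ubiquitin ligase, had 566, 858, 221 and 298 (-1.47, SE 0.30). The WT pools of *Jund* and *Siah2* were spread more widely than the KO pools. *Tmem8b* had 60.3, 150, 0.784 and 6.73 (-4.98, SE 1.11), which rests on 1 and 4 reads in KO and lies 34 bp from a GENCODE start. It came from the WT list alone, whose calling had used the same reads. Its value was -3.92 without the library labelled KO female, -6.76 without the library labelled KO male, -5.61 without the library labelled WT female and -4.23 without the library labelled WT male. The adjusted p of these 4 was 0.198 in the test over all peaks. The peaks of *Klhl42*, *Jund* and *Siah2* were the 3 called, all lower in KO, when only peaks with at least 10 reads in every library or only the peaks of both lists entered the fit. Over all peaks these fits called 30 of 19834 (0.151%) and 8 of 8893 (0.09%).

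The 5 peaks higher in KO were those of *Srgn*, *Cnih2*, *Galnt1*, *Ccr1l1* and *Alkbh4*, from the KO list alone. *Srgn*, the proteoglycan core protein of secretory granules, had 1, 2, 134 and 51 reads at 1260 bp. Pooled over the libraries of a genotype and scaled, this was 21.5-fold more in KO, with a 95% counting interval of 7.23 to 105. *Cnih2*, an auxiliary subunit of AMPA receptors, had 0, 0, 72 and 38 reads, and *Galnt1*, which starts mucin-type O-glycosylation, 0, 0, 73 and 29. Against a floor of 3 reads over the WT group, they were at least 12.8-fold and at least 11.8-fold higher in KO. *Ccr1l1*, a chemokine receptor-like gene, with 0, 0, 55 and 39 reads, and *Alkbh4*, a demethylase, with 0, 0, 42 and 49, were at least 10.9-fold and 10.6-fold higher. The *Ccr1l1* peak was annotated near the transcription end and lay past the end of its GENCODE gene, at 126% of its length of 1166 bp. Intervals and floors cover counting error alone. The 5 peaks had an adjusted p of 0.198 (edgeR), and all came from the group whose calling had used the same reads. Each of the 9 peaks named here as higher or lower passed the threshold with DESeq2, with the likelihood ratio test and without either of the WT libraries, and none did without either of the KO libraries.

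An acetylated peak lay over 8 of these 9 Rpb2 peaks, and at all 8 the pools of the genotypes overlapped in H3K27ac. At *Klhl42* it was 11.8, 7.57, 7.59 and 10.8 CPM per kb, at *Jund* 21.4, 22, 24.1 and 21.3, and at *Srgn* 8.94, 14.8, 15.7 and 13.8. These values were not tested.

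The downstream-to-promoter ratio asked whether Pol II was distributed differently within genes. No pair passed an adjusted p of 0.05 (0% of 1097, edgeR quasi-likelihood), and the lowest was 0.0862. In simulated counts this fit recovered 95 of 200 pairs whose ratio changed 4-fold (47.5%). At an unadjusted p under 0.05 the ratio was higher in KO in 96 pairs (8.75%) and lower in 29 (2.64%). The likelihood ratio test of edgeR called 34, 27 of them higher. Per library, the median log2 ratio was -1.72 ± 0.17 (SD, n = 2 pools) in WT and -1.45 ± 0.04 (SD, n = 2 pools) in KO, a difference of 0.27, and both KO pools were above both WT pools. The exact permutation test over the 4 libraries gave p = 0.333 (two-sided), the smallest that 2 against 2 allows.

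This difference went with the list of origin. In the 303 pairs with both peaks in both lists the medians were -1.13, -1.36, -1.17 and -1.20, the difference was 0.06 and the pools overlapped (exact permutation p = 1). With at least 10 reads in both peaks in every library it was 0.09 (855 pairs), also with pools that overlapped. The median change of the ratio was 0.74 in pairs whose downstream peak was in the KO list alone, 0.05 for both lists and -0.67 for the WT list alone. Without the library labelled WT female the difference was 0.39, and without the library labelled WT male 0.15. With TMM factors for downstream and promoter peaks separately, the median change per pair was 0.17 in place of 0.31.

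Of the named pairs with a ratio higher in KO, *Zcchc6*, a uridylyl transferase that marks mRNAs for decay, had log2 ratios of -2.09, -2.12, -0.01 and 0.35 at 557 bp. The change was 2.28 (SE 0.58, adjusted p = 0.107, edgeR), and the peak lay 2 bp before a GENCODE start (-2). *Ifngr2*, a chain of the interferon gamma receptor, had -0.69, -0.51, 2.30 and 0.91 (2.21, SE 0.66, adjusted p = 0.232, edgeR). Its promoter peak had 104, 158, 92 and 115 reads, so the deeper library labelled KO female had the fewest, while its downstream peak had 63, 109, 446 and 212. *Sema4c*, a semaphorin, had -1.85, -2.02, 0.68 and 0.12 (2.36, SE 0.74, adjusted p = 0.252, edgeR). Its promoter peak belonged to another start, with 1886 bp between the 2 peaks. All 3 downstream peaks came from the KO list alone.

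Of the pairs with a ratio lower in KO, *Phactr4*, a regulator of protein phosphatase 1, had log2 ratios of 1.04, 0.80, -0.72 and -1.19 (-1.88, SE 0.66, adjusted p = 0.287, edgeR), and its peaks were 72 bp apart. *Arhgap25*, a GTPase-activating protein of leukocytes, had -1.96, -1.63, -4.36 and -2.89 (-1.82, SE 0.63, adjusted p = 0.283, edgeR), but its promoter peak belonged to another start 38189 bp away. Both downstream peaks came from the WT list alone. The direction of these 5 pairs was set by the rule that named them.

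Of the 36 gene symbols listed for homeostatic microglia, which mark the identity of these cells, 30 had 43 early gene body peaks. At an unadjusted p under 0.05, 5 were higher and 3 lower in KO, with a median log2 fold change of 0.09. For these and the following lists, the shares of all peaks at that p were 6.12% higher and 6.06% lower, and the median of all peaks was 0.04. None passed the adjusted threshold. Promoter peaks of these genes were dense, with a median of 839 against 175 for all promoter peaks, and 25 of their 29 pairs were less dense downstream (median log2 ratio -2.82). *Sparc*, a matricellular protein, had 992, 1159, 767 and 905, lower in both KO pools (-0.37, SE 0.21, adjusted p = 0.51, edgeR), and lay 77 bp from a GENCODE start. *Rhob*, a small GTPase, had 672, 632, 684 and 596 in its 3′ UTR, with pools that overlapped. *Csf1r*, the receptor that microglia need to survive, had 563, 537, 612 and 836, higher in both KO pools (0.39, SE 0.24, adjusted p = 0.523, edgeR), and lay 52 bp from one.

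Many immediate early genes are induced through release of paused Pol II. Of 42 immediate early and stress genes, 22 had 29 such peaks, 2 higher and 3 lower in KO at an unadjusted p under 0.05. All 23 pairs were less dense downstream, with a median log2 ratio of -3.11. *Junb*, another AP-1 subunit, had 733, 489, 726 and 726 at 1997 bp, annotated near the end of its short transcript, with pools that overlapped. Of 30 genes of inflammatory signalling and antigen presentation, 8 had 8 such peaks, and 0 reached an unadjusted p under 0.05. *Tlr4*, the receptor of bacterial lipopolysaccharide, had 271, 352, 450 and 327, 156 bp from a GENCODE start. *Rel*, an NF-kB subunit, had 357, 339, 265 and 223, lower in both KO pools (-0.51, SE 0.28, adjusted p = 0.483, edgeR). *B2m*, the light chain of MHC class I, had 183, 247, 214 and 252. The pools of *Tlr4* and *B2m* overlapped.

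Of 34 pausing and elongation factors, 31 had an Rpb2 peak somewhere, and 4 had 5 early gene body peaks, with 1 higher and 0 lower at an unadjusted p under 0.05. *Hexim1*, the inhibitor of P-TEFb, had 111, 138, 117 and 44.6. *Aff4*, a scaffold of the super elongation complex, had 137, 82.3, 59.3 and 83.2, and *Cdk9*, the kinase of P-TEFb, had 86.6, 73.4, 62.3 and 67.4. Only for *Cdk9* of these 3 were both KO pools below both WT pools (-0.30, SE 0.51, adjusted p = 0.84, edgeR).

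Of 31 regulators of mRNA processing and decay, 11 had 14 such peaks, 1 higher and 3 lower at an unadjusted p under 0.05. The list includes *Klhl42*, which was placed there because the study named it on these samples and which is not itself an RNA-binding factor. *Srsf1*, a splicing factor, had 270, 361, 262 and 233, and *Hnrnpa2b1*, an RNA-binding protein, had 272, 239, 110 and 206, both lower in both KO pools. The first lay 4 bp from a GENCODE start. All 12 pairs of the list were less dense downstream. Of 94 genes of translation and the ribosome, 19 had 22 such peaks, 1 higher and 1 lower, and 17 of 18 pairs were less dense downstream. *Rpl21*, of the large subunit, had 544, 702, 785 and 563 at a peak 12 bp before a GENCODE start (-12). *Eef1a1*, an elongation factor of translation, had 342, 242, 400 and 433, higher in both KO pools (0.52, SE 0.32, adjusted p = 0.536, edgeR). The *Eef1a1* peak came from the KO list alone.

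Markers of other cells were nearly absent from the early gene body peaks. Single peaks belonged to *Slc1a3*, a glutamate transporter of astrocytes, with 188, 241, 196 and 143 and 8 bp before a GENCODE start (-8), and to *Mbp*, a myelin protein, with 184, 46.1, 98.8 and 29.9. For *Mbp* both pools labelled female were above both pools labelled male. The name pattern used for replication-dependent histones matched 1 gene alone, so whether these genes had such peaks was not surveyed. No neuron, endothelial, blood leukocyte or border macrophage marker had an early gene body peak.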

How the data were processed

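Per the study's methods, single-end reads were mapped to mm10 with Bowtie 2, uniquely mapped reads were kept, peaks were called with HOMER, and peaks reproducible between the 2 pools of a genotype were joined into 1 table. The authors deposited raw read counts per peak and library for Rpb2 and for H3K27ac, with total reads in the header. The 4 input samples of the 12 in the series were not used here, and 0 columns of per-sample values were left unused. Distances, genes and annotations are those of the deposited table, and starts, UTRs and sequences come from GENCODE M21 and the RefSeq assembly GRCm38.

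The count test was that of edgeR 4.0.16 under R 4.3.3 (quasi-likelihood, TMM, Benjamini-Hochberg adjustment over all features, adjusted p under 0.05) on peaks whose mean count reached 4 in WT or in KO, which all 26706 did. Pairs were fitted as 8 columns with library, region and region by genotype as terms and peak width as an offset. Library ratios used a pseudocount of 0.5 reads. SE is the log2 fold change over the root of F. The study used DESeq2 on peaks within 1000 bp of a TSS. Each choice is an alternative here, taken alone: DESeq2 1.42.0 on all peaks, and the 1000 bp window with edgeR. The 2 were not combined, and the study's own cutoffs were not applied. Fits were first tested on simulated counts in which 200 peaks or 200 pairs changed 4-fold. The genotype fit recovered 14 of those peaks (7%) with 0 false calls, and the ratio fit 95 of those pairs (47.5%) with 3 false calls. For downstream against promoter density, 599 of 617 simulated pairs that differed at least 2-fold were recovered (97.1%). Other steps ran in Python 3.11.15 (pandas 2.3.3, SciPy 1.17.1, NumPy 2.4.6), and plots were drawn with matplotlib 3.10.9.

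Named genes were *Cx3cr1*, the 8 densest, 5 higher and 5 lower in KO with the lowest p and pools apart, 5 with the highest and 5 with the lowest ratio, 3 with a ratio higher and 3 lower in KO, and up to 3 of each gene list. The peaks and lists were chosen with earlier results of these data known. Each pool holds different mice, and the numbers of the pools mark the sex label alone. Some items that the rule names are not reported here.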

Additional observations from a re-analysis of the deposited data

Results flagged for a closer look

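The median log2 fold change of KO over WT over the 2326 early gene body peaks was -0.02 between the pools labelled female and 0.03 between the pools labelled male. The 2 values differ in sign, but both are close to 0, where TMM scaling puts the centre of all peaks, and the sex label of the WT female pool goes against its Y-linked reads. With 1 pool per genotype and sex label the difference was not tested. The library labelled WT female had 136 reads in the 3 peaks on the Y chromosome, none of which is an early gene body peak, whereas the library labelled KO female had 0.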

How the results depend on the processing

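The count of early gene body peaks called between genotypes was 0 and stayed at 0 with RLE factors, total reads, no filter (all 26706 peaks passed the filter already), peaks within 1000 bp of a TSS, autosomal peaks and the sex label as a replicate block. It was 78 with DESeq2, 57 with edgeR's likelihood ratio test, 3 with at least 10 reads in every library, 3 among peaks of both lists, 20 with the newer quasi-likelihood method (added after the data were seen), and from 0 to 145 with 1 library left out. The estimated prior degrees of freedom of the spread were 10.2 with all libraries, 74.6 without the library labelled WT female, 78.3 without the library labelled WT male, and 10.1 and 10.2 without the KO libraries. Where a left-out library leaves 1 in a genotype, that library is assumed to vary like the other genotype.

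The count of pairs whose ratio differed was 0, was 34 with the likelihood ratio test and from 0 to 65 with 1 library left out (65 without the library labelled WT female, 41 without the library labelled WT male), and was 0 under the other alternatives, the region by sex label as a replicate block among them. The count of pairs whose 2 peaks differed in density was 819 and lay from 643 to 860 under all other settings but 1, left-out libraries included, the lowest with at least 10 reads in both peaks in every library, where 855 pairs were tested. The exception was 239 among the 303 pairs with both peaks in both lists (added), where fewer pairs were tested. With 1 library left out it ranged from 664 to 817. The difference in the median ratio kept its direction under every alternative, from 0.06 to 0.39.

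The sex labels give pools of different animals the same number. Deviations from the genotype means correlated at -0.00762 between pools of the same label, and with 2 pairs the labels were not taken to pair the samples. In the replicate block, 85 early gene body peaks were higher and 125 lower at an unadjusted p under 0.05 (3.65% and 5.37%, against 3.99% and 5.57% of all peaks). Without it, 105 were higher and 140 lower (4.51% and 6.02%, against 6.12% and 6.06% of all peaks). For the *Cx3cr1* peaks and the peaks named as higher or lower in KO, 12 in all by the rule, 92 of 150 alternative values stayed on the same side of the threshold and 58 passed it, and 0 changed direction. The peaks named as higher or lower were picked for pools that do not overlap, so the rule had set their direction. That 0 changed direction is therefore no test of these peaks. Depth limits peaks with few reads: 3 reads in a library are 0.0677 to 0.257 CPM of total reads.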
